A study of Mus musculus with 18 samples.

Results

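The genes described here encode the nuclear-encoded subunits of the 5 mitochondrial complexes of oxidative phosphorylation, together with the complex I assembly factors that share their naming. They were taken from the probe sets with a single annotated gene symbol: every symbol starting with Nduf, Uqcr, Atp5, Cox4, Cox5, Cox6, Cox7 or Cox8, and Sdha, Sdhb, Sdhc and Sdhd. Each gene was represented by its probe set with the highest mean over the 18 arrays. This gave 90 genes of the 18193 that the arrays measure with a single-symbol probe set. By role they were 6 core and 28 accessory subunits of complex I, 8 complex I assembly factors, 4 subunits of complex II, 8 of complex III, 11 of complex IV, 17 of complex V and 8 isoforms known from particular tissues such as muscle, brown fat or testis. Ndufa4, named as a complex I gene, was placed with complex IV, where its product is now known to sit.

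The study put sorted mouse CD4 T cells on 18 Affymetrix M430v2 arrays, 3 for each of 6 groups. CD25+ cells are called Treg and CD25- cells Tconv. The sort of every group took CD4+ cells and left out those with CD8a, B220 or CD11b. Lymph node cells (cervical, inguinal and mesenteric nodes) came from C57BL/6 mice of 32 to 36 weeks, with 3 to 6 mice pooled per array. Fat cells were taken from the epididymal pads of C57BL/6 males aged 25 to 35 weeks, with 8 to 10 mice per array and TCRb+ added to the sort. For thymus the mice were BDC2.5/NOD, aged 4 to 6 weeks, with 3 to 6 per array and a magnetic depletion of CD8a cells before the sort. Thymus therefore differed from lymph node in strain and age as well as in tissue, and these cannot be told apart. The BDC2.5 strain carries a transgenic T cell receptor. An error between arrays measures the spread between pools of mice, not between mice.

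Complexes I to IV pass electrons from NADH and succinate to oxygen, and complexes I, III and IV pump protons across the inner mitochondrial membrane as they do so. Complex V, the ATP synthase, lets the protons return and makes ATP. Resting and memory-like T cells are known to rely on this route for much of their ATP, and regulatory T cells are known to oxidise more fatty acid and to depend more on respiration than activated conventional T cells. The subunits come from both the nuclear and the mitochondrial genome; the genes described here are nuclear, so their transcripts do not measure how many complexes were assembled.

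The deposited intensities of the 6 fat arrays had higher medians (76.9 to 82.2) than those of the other 12 arrays (57.9 to 63.0). All values below are therefore intensities after quantile normalization of the 18 arrays, which puts every array on one scale, and changes are log2 differences of group means ± SE from limma fitted to all genes. A gene was tested if its mean exceeded the median of all values (intensity 65.5) in at least 1 group, which held for 12256 genes. It was called, and is said to have risen or fallen, where its p, adjusted by Benjamini-Hochberg over those genes, was under 0.05. Of the 90 genes, 83 were tested. The remaining 7 (Cox6b2, Cox7a1, Cox7b2, Cox8b, Ndufa4l2, Ndufb1 and Ndufb4) were dim in all 6 groups. A probe set's intensity depends on its probes as well as on its transcript, so levels are compared between groups and not between genes.

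Some features of the arrays bear on these results. Of the 9 measured markers of CD4 T cells, 8 exceeded the dimness threshold in every group. The fat arrays also carried transcripts of other cells: the summed intensity of the 8 stromal and endothelial markers lay between 2407 and 6983 in fat and between 389 and 468 elsewhere. Col1a1, Col1a2, Col3a1, Dcn and Kdr rose in both fat groups against lymph node. Pecam1 went the other way: it averaged 39.2 in fat Treg and 56.9 in lymph node Treg, where it was called, and 43.4 and 59.3 in Tconv, not called. Cdh5 and Pdgfra were dim in all groups. The 6 measured adipocyte markers summed to 1608 to 2856 in fat and 213 to 259 elsewhere, most of it Fabp4 (mean 2085 in fat Treg, 8.5 in lymph node Treg), which macrophages and endothelial cells also express. The adipocyte hormone gene Adipoq averaged 74.0 in fat Treg (20.3 to 166) and 43.4 in fat Tconv (22.9 to 74.9), and 14.4 to 15.8 elsewhere. Retn averaged 159 and 142 in fat against 98.0 to 104 elsewhere, while Lep (43.2 and 43.3 against 44.5 to 47.4) and Lipe (44.7 and 44.0 against 44.3 to 48.9) were level. The 11 measured markers of macrophages and monocytes summed to 888 to 3304 in fat and 603 to 952 elsewhere. The 3 measured B cell markers summed to 435 to 715 in lymph node, 287 to 369 in fat and 221 to 322 in thymus. Most of this was Ms4a1 (mean 396 in lymph node Tconv and 435 in Treg), which fell in all 4 comparisons with lymph node. Blk was not higher in lymph node as a whole: it averaged 122 in Tconv and 108 in Treg there, 145 and 138 in fat, and 116 and 144 in thymus. Cd79a was dim in all groups. The part of all these cells in the results was not tested. In sorted bulk samples, fewer cells of a type and less RNA per cell cannot be told apart. By the numbers in their file names the arrays fall into 5 runs of consecutive numbers; a run is given here only as that.

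1 array stood apart for these genes. Lymph node Treg replicate 3 had the lowest value of its group in 68 of the 83 genes, against 31.1% of all genes tested. Its median deviation from each gene's mean over the 18 arrays was -0.46 on the log2 scale, against 0.16 and 0.11 in the other lymph node Treg arrays. Over all genes tested its median deviation was 0.05, and its log2 ratio of 3' to 5' Gapdh signal, a measure of shortened RNA, was 3.39, close to the 3.32 of replicate 2 and above the 2.31 of replicate 1. Most counts of calls and medians of changes that involve lymph node Treg are therefore also given without this array. Counts of signs, of intervals and of groups without overlap, correlations and levels by complex are given with all arrays only.

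Across the 18 arrays the genes moved largely together. The deviation of a gene from its own mean was correlated with the median deviation of the other 82 genes. The median r was 0.67 over the 83 genes, against -0.07 for the 12173 other genes tested. All points share the same arrays, lymph node Treg replicate 3 among them, so this is a description only. The values ran from -0.60 for Sdhc to 0.91 for Ndufb9, and 8 genes lay below 0, among them Cox7c (-0.18) and Atp5d (-0.07). Differences between the 6 groups made up a median of 51.3% of a gene's variance over the arrays, against 62.4% for the other genes. Ndufa4 was high on this measure, with 91.2% of its variance between groups.

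**Figure D1:**
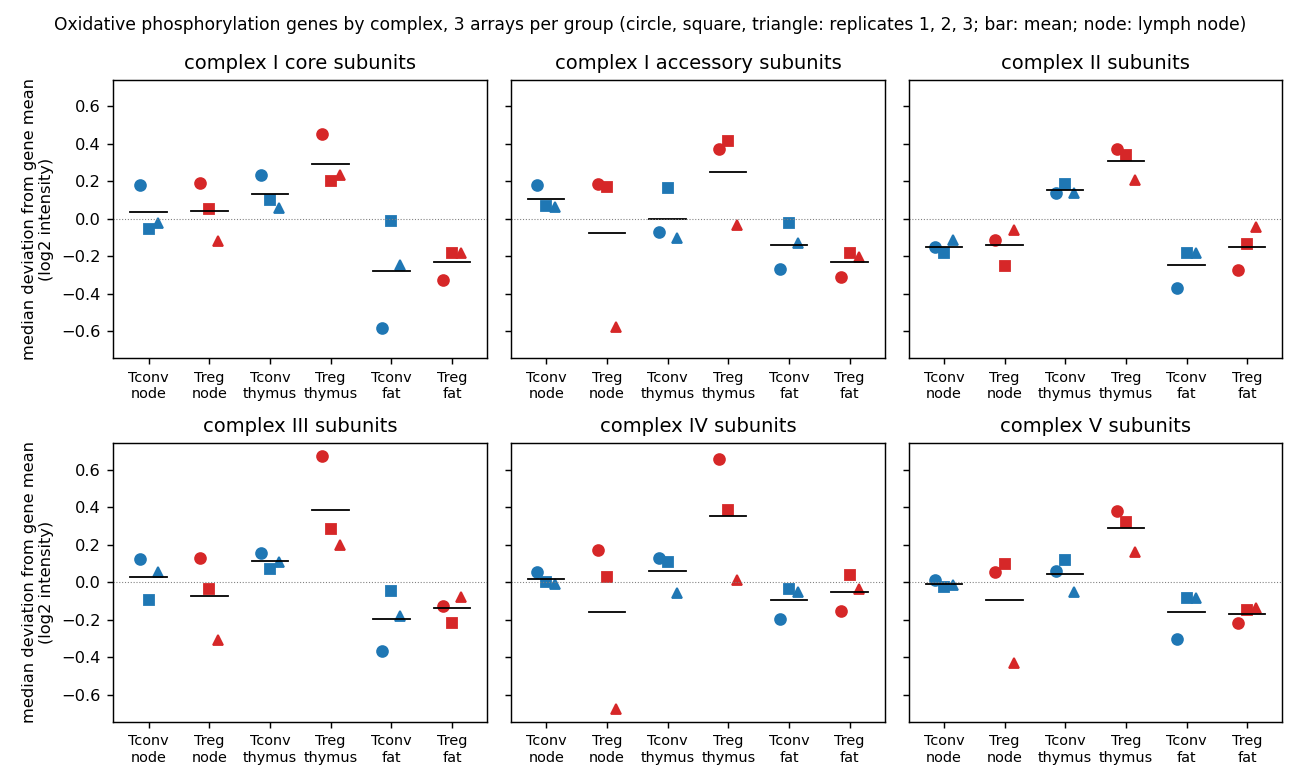
Median deviation of each complex's genes from their own means over the 18 arrays (y axis, log2 intensity after quantile normalization) in each of the 6 groups (x axis), with 1 point per array and a bar at the mean of 3. The mean of thymus Treg is the highest in every panel (single arrays up to 0.67, in complex III), and lymph node Treg replicate 3 (triangle) lies lowest for the complex I accessory subunits (-0.57), complex IV (-0.68) and complex V (-0.43).

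By complex, thymus Treg had the highest group mean in each of the 6 sets of subunits, and the fat groups lay below lymph node Tconv or, for complex II in Treg, level with it. For all 83 genes the median deviation was 0.41, 0.32 and 0.12 in the 3 thymus Treg arrays and lay between -0.33 and -0.04 in the 6 fat arrays. The lymph node Tconv arrays (0.08, -0.02 and 0.01) and thymus Tconv arrays (0.04, 0.12 and -0.04) were close to 0. Complex II departed from the others: lymph node arrays (-0.25 to -0.06) were as low as fat arrays (-0.37 to -0.04), and all 6 thymus arrays (0.14 to 0.37) lay above them.

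The comparison of fat with lymph node asks how the genes differ between T cells of a non-lymphoid tissue and those of the lymph nodes in mice of like strain and age. In Treg, 3 genes rose and 6 fell in fat; 35.3% of all genes tested were called here (16.1% higher, 19.3% lower), against 10.8% of these genes. The largest fall was that of Ndufa4, the largest rises those of the ATP synthase genes Atp5md and Atp5d. The median of the 83 changes was -0.09, with -0.01 for all genes, and the median size of a change was 0.24, with 0.34 for all genes. The median standard error was larger for these genes (0.24) than for all genes (0.18). The log2 ratio of 3' to 5' Gapdh signal was 3.01 to 3.48 in fat Treg and 2.31 to 3.39 in lymph node Treg, and its part in the changes was not tested. For 66 of the 83 (79.5%), the 95% interval of the change lay within a doubling or halving, which held for 68.8% of all genes. The 2 groups did not overlap for 16 of the 83 genes and for 50.6% of all genes, so a lack of overlap was common here.

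Complex IV held the largest change. Ndufa4, a small subunit of cytochrome c oxidase, had intensities of 172, 137 and 141 in the 3 fat Treg arrays and 594, 456 and 301 in lymph node Treg. It was 2.91-fold lower in fat (-1.54 ± 0.22, adjusted p = 4.29e-05). Its 3 fat values lay below every other array of the study. Cox7a2l, placed with complex IV by its name, had 1339.8, 1343 and 1439 in fat Treg and 2409, 2329 and 2117 in lymph node Treg (-0.73 ± 0.16, adjusted p = 0.00216), again with no overlap. The other 9 complex IV genes tested were not called, and the median over the 11 was 0.09, or -0.19 without lymph node Treg replicate 3. Without that array Ndufa4 changed by -1.8 and Cox7a2l by -0.79, both called. Cox7a2, with Cox7a2l the probe set of highest mean in complex IV, was at 2269.9 ± 152 in fat Treg and 2243 ± 746 in lymph node Treg (mean ± SD, n = 3; 0.08 ± 0.20, and -0.22 without that array).

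In complex I, Ndufaf1 and Ndufv2 fell. Ndufaf1 is an assembly factor for the membrane arm and had 87.8, 129 and 151 in fat Treg against 341, 308 and 252 in lymph node Treg (-1.32 ± 0.28, adjusted p = 0.00142). Every fat Treg array was below every lymph node Treg array. Ndufv2, a core subunit with an iron-sulphur cluster, had 637, 869 and 732 against 1274, 1589 and 941 (-0.74 ± 0.24, adjusted p = 0.023). Its call was lost as deposited and when lymph node Treg replicate 1 or 2 or fat Treg replicate 1 or 3 was left out (adjusted p up to 0.177 over 15 alternatives). All 6 core subunits had changes below 0 (median -0.32, from -0.74 to -0.07), and so had all 8 assembly factors (median -0.28), of which Ndufaf1 alone was called. None of the 26 accessory subunits tested was called, with a median of -0.17 and 16 below 0. Ndufb3 among them had -0.63 ± 0.24 with an adjusted p of 0.0501. Of the complex I genes with the highest mean, the core subunits Ndufs3 (-0.29 ± 0.18) and Ndufv1 (-0.18 ± 0.18), the accessory subunits Ndufa1 (0.09 ± 0.26) and Ndufc2 (-0.57 ± 0.23) and the assembly factors Ndufaf4 (-0.01 ± 0.25) and Ndufaf8 (-0.20 ± 0.22) were not called.

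Without lymph node Treg replicate 3, complex I held 14 of 20 falls: 1 of 6 core subunits, 3 of 8 assembly factors and 10 of 26 accessory subunits. Of all genes, 34.1% were called in the refit without that array, 16.3% higher and 17.8% lower. In that refit Ndufaf1 (-1.44), Ndufv2 (-0.94) and also Ndufaf5 (-0.62) and Ndufaf6 (-0.66) fell, and 10 of the 26 accessory subunits did: Ndufc1 (-1.3), Ndufb3 (-0.96), Ndufc2 (-0.88), Ndufs5 (-0.85), Ndufa5 (-0.84), Ndufa3 (-0.79), Ndufb6 (-0.76), Ndufab1 (-0.69), Ndufs4 (-0.62) and Ndufa6 (-0.52). The medians were then -0.36 for core subunits, -0.52 for assembly factors and -0.31 for accessory subunits. The count of called accessory subunits thus went from 0 to 10 with the removal of 1 array.

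The subunits of complex II went opposite ways. Sdha, the flavoprotein that oxidises succinate, had 1731, 1873 and 1595 in fat Treg and 2132, 2541 and 3135 in lymph node Treg and was 1.49-fold lower in fat (-0.57 ± 0.16, adjusted p = 0.0112). Sdhc, a membrane anchor that helps bind ubiquinone, had 688, 778 and 786 against 508, 457 and 671 and rose (0.48 ± 0.14, adjusted p = 0.0139). The groups did not overlap for either gene. Sdhb, the iron-sulphur subunit (0.31 ± 0.30), and Sdhd, the other anchor (-0.20 ± 0.35), were not called. Without lymph node Treg replicate 3 that of Sdhc was 0.64 and called, and that of Sdha was -0.43 and no longer called, and as deposited it was -0.15. Sdhc lost its call with all probe sets of a gene averaged, in a fit of the 2 groups alone, and when lymph node Treg replicate 1 or 2 or fat Treg replicate 3 was left out.

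Of complex III, Uqcrc2, a core protein that holds the complex together, fell from 2096, 1734 and 1831 in lymph node Treg to 941, 1094 and 1475 in fat Treg (-0.71 ± 0.20, adjusted p = 0.00914). Its call was lost as deposited and without fat Treg replicate 1. The other 7 subunits tested were not called. Without lymph node Treg replicate 3 the change of Uqcrc2 was -0.73, still called, and the median of complex III went from 0.02 to -0.21. The 2 of highest mean intensity were Uqcrb, at 6400.2 ± 573 in fat and 7430.4 ± 851 in lymph node Treg, and Uqcrh, at 3083 ± 153 and 3427 ± 1724.

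In complex V, 2 of 17 genes rose and none fell, with a median of -0.04. Atp5d, the delta subunit of the rotating central stalk, had 1695, 1752 and 1723 in fat Treg, a narrow range, against 1123, 908 and 916 in lymph node Treg (0.82 ± 0.18, adjusted p = 0.00161). Atp5md, a small subunit of the membrane part, had 1971, 1859.8 and 1637 against 984, 1216 and 649.7 (0.98 ± 0.25, adjusted p = 0.00479). Neither gene overlapped between the groups. Without lymph node Treg replicate 3 the changes were 0.77 and 0.73, both called, the median of complex V was -0.25, and Atp5pb (-0.83), Atp5j (-0.5) and Atp5o (-0.49) of the peripheral stalk fell. The 2 genes of highest mean in complex V did not pass the test with all arrays: Atp5a1, the alpha subunit, was at 6356 ± 245 in fat and 7544 ± 631 in lymph node Treg (-0.24 ± 0.13), and Atp5g3, a subunit of the rotating ring, at 4961 ± 203 and 5949.7 ± 1006 (-0.25 ± 0.15).

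The number of falling genes depended on the arrays and the scale used. Without lymph node Treg replicate 3, 3 genes rose and 20 fell, 27.7% of the 83, against 34.1% of all genes in the same refit (16.3% higher, 17.8% lower). The falls were 14 in complex I, 3 in complex V, 2 in complex IV and 1 in complex III. With the run as a block, 4 rose and 13 fell, 20.5% against 44.4% of all genes. The median of the genes relative to that of all genes was -0.27 within run 3, -0.23 within run 4 and 0.29 within run 5, the run that holds lymph node Treg replicate 3. As deposited, where the median of all genes was shifted upward by 0.37, 11 genes rose and 2 fell, 15.7% against 54.7% of all genes, and 83.2% of all calls were rises against 45.4% after quantile normalization. The calls of Cox7a2l, Uqcrc2, Ndufv2 and Sdha were lost as deposited. Ndufa4 and Ndufaf1 fell and Atp5d and Atp5md rose under each of these 3 scales, with the run block, and without any single array. The probe sets not used for the calls had the same sign for all 6 of the called genes that had another one above the threshold.

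**Figure D2:**
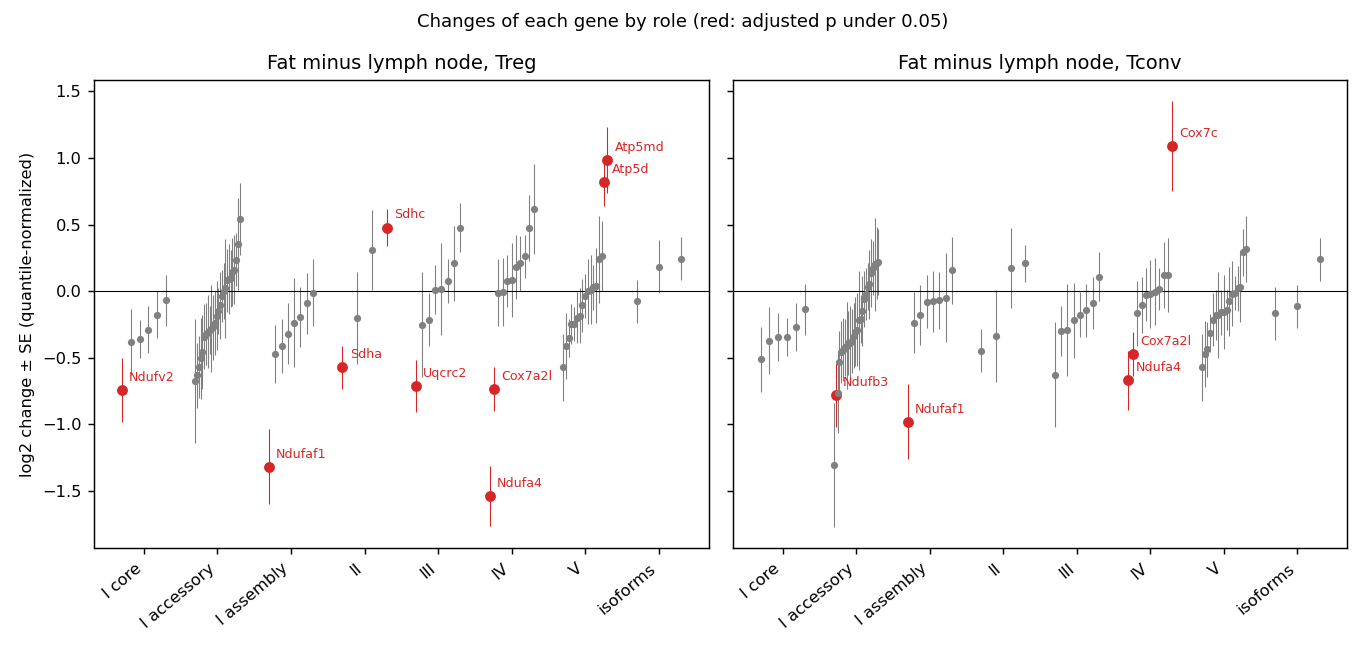
Change of each of the 83 genes between fat and lymph node (y axis, log2 change ± SE after quantile normalization) in Treg (left) and Tconv (right), grouped by role (x axis), with genes called at adjusted p under 0.05 in red. Ndufa4 at -1.54 and Ndufaf1 at -1.32 lie lowest in Treg and Atp5md at 0.98 highest, while Cox7c at 1.09 is the only red point above 0 in Tconv.

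In Tconv, 1 gene rose and 4 fell in fat, 6.02% of the 83, against 23.3% of all genes tested (11.0% higher, 12.3% lower). The median of the 83 was -0.17 and 63 changes were below 0, with a median of -0.04 over all genes. Ndufaf1 had 81.6, 212 and 158 in fat and 329.5, 274 and 232 in lymph node Tconv (-0.98 ± 0.28, adjusted p = 0.0168). Ndufb3, an accessory subunit, had 899, 991 and 1031 against 1607, 1672 and 1733 (-0.78 ± 0.24, adjusted p = 0.0256). In complex IV, Ndufa4 had 248, 319 and 283 against 506, 461 and 387 (-0.67 ± 0.22, adjusted p = 0.0382), and Cox7a2l 1794, 2303 and 1940.1 against 2619, 2613 and 3103 (-0.47 ± 0.16, adjusted p = 0.048). Each of these 4 was separated between the groups without overlap, as were 20 of the 83 genes and 37.1% of all genes. Of 15 alternatives, the call was lost under 4 for Ndufaf1, 5 for Ndufb3, 6 for Ndufa4 and 10 for Cox7a2l. Leaving out fat Tconv replicate 1 ended each of the 4 calls, and leaving out 4 of the 6 arrays one at a time did so for Ndufb3 and Ndufa4. Fat Tconv replicate 1 had the lowest median deviation of the 6 fat arrays (-0.33) and the highest 3' to 5' Gapdh ratio of the 18 (3.88). The ratio was 3.19 to 3.88 in fat Tconv and 2.51 to 3.38 in lymph node Tconv, and its part was not tested. Ndufc1, an accessory subunit of complex I, had the lowest change but a wide error (-1.30 ± 0.46, adjusted p = 0.0513).

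Cox7c, an accessory subunit of complex IV, rose in fat Tconv, where it had 618, 557 and 403 against 343, 297 and 141 in lymph node Tconv (1.09 ± 0.34, adjusted p = 0.026). A second probe set gave 0.94. The size rested on lymph node replicate 3: within the runs the change was 0.24, 0.91 and 2.13, and without that array it was not called. Cox7c was also the only called gene that stayed so as deposited, when 8 genes rose and none fell (9.64% against 42.3% of all genes); after centring each array on its median, 3 fell and none rose (3.61% against 21.0%). With the run as a block 1 rose and 11 fell (14.5% against 31.9%), and without fat Tconv replicate 1 none was called (0% against 17.6%). Relative to all genes the median of the 83 was -0.16 within run 3, 0.02 within run 4 and -0.28 within run 5. No gene's fall in Tconv was called as deposited, where the median of all genes was shifted by 0.33.

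Treg were compared with Tconv within fat, where the transcripts of other cells were present in both, though not evenly. Stromal and endothelial markers summed to 2510 to 6983 in Treg and 2407 to 5261 in Tconv. The macrophage and monocyte markers summed to 1177 to 3304 in Treg and 888 to 2344 in Tconv. Over the 8 of these macrophage and monocyte markers that were tested, the median difference was 0.43, and none was called. The part of these cells in the differences was not tested. The fat arrays are those of the comparisons with lymph node, so the results share them. Ndufa4 and Cox7a2l fell in Treg and none rose, 2.41% of the 83, against 12.8% of all genes (6.87% higher, 5.89% lower). Ndufa4 was 1.89-fold lower in Treg (-0.92 ± 0.22, adjusted p = 0.00925), and within the 3 runs the difference was -1.0, -1.22 and -0.53. The call held under all 14 alternatives, with adjusted p between 9.29e-04 and 0.0466. Cox7a2l was 1.46-fold lower (-0.54 ± 0.16, adjusted p = 0.0362), with -0.43, -0.78 and -0.42 within runs. That call was lost as deposited, after centring and when any of 5 of its 6 arrays was left out. The median over the 83 was -0.05, and for 79 of them (95.2%) the interval of the difference lay within a doubling or halving, against 82.2% of all genes.

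Treg and Tconv arrays of a tissue that share a replicate number varied together, but they also share a run. With that number as a block 5 genes were called in fat, 1 higher and 4 lower, 6.02% of the 83 against 23.1% of all genes in the same fit. Besides Ndufa4 and Cox7a2l, Cox7c (-0.56, adjusted p = 0.00115) and Uqcrc2 (-0.43, adjusted p = 0.0343) fell and Atp5d (0.49, adjusted p = 0.0123) rose. Atp5d had 1695, 1752 and 1723 in fat Treg and 1218, 1233 and 1224 in fat Tconv, so that the groups did not overlap. The same held for 14 of the 83 genes and 27.4% of all genes. Without the block the adjusted p of Atp5d was 0.0843.

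Whether the Treg difference was itself larger in fat than in lymph node was tested as an interaction. No gene of the set passed without the block, while 5.34% of all genes did (2.46% higher, 2.88% lower). An unadjusted p under 0.05 was found for 1 of the 83, and for 14.7% of all genes. Ndufa4 came first, at -0.87 ± 0.32 (adjusted p = 0.153): the difference between Treg and Tconv was -0.05 ± 0.22 in lymph node and -0.92 ± 0.22 in fat. With the replicate block, Ndufa4 (adjusted p = 0.023) and Cox7c (-0.47, adjusted p = 0.0462) passed, 2.41% of the 83 against 11.8% of all genes, and Ndufa4 also passed without lymph node Treg replicate 3 (-1.13, adjusted p = 0.0274).

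Ndufa4 has a paralogue, AA467197 (also named Nmes1), whose product is known to take the place of the Ndufa4 protein in complex IV. Its name did not bring it into the gene set, and it was picked after its values were seen. AA467197 had intensities of 1352, 2379 and 2547 in fat Treg, far above the 27.5, 50.3 and 44.5 of fat Tconv. It had 16.7, 12.4 and 14.1 in lymph node Treg, 20.7, 16.3 and 18.3 in lymph node Tconv, 49.3, 36.2 and 31.2 in thymus Treg and 49.2, 33.7 and 29.5 in thymus Tconv, all below the dimness threshold. The fat Treg values stood above all 15 other arrays. No fold is given, since the gene was above the dimness threshold in fat Treg alone. On the same arrays Ndufa4 ran the other way, with means ± SD of 150.1 ± 19.3 in fat Treg and 283 ± 35.5 in fat Tconv. From high to low, the means of Ndufa4 were 821 ± 218 in thymus Treg, 583 ± 50.4 in thymus Tconv, 451 ± 60.3 in lymph node Tconv and 450.5 ± 147 in lymph node Treg, then the fat groups. The lymph node groups did not differ beyond their spread (-0.05 ± 0.22, and 0.21 ± 0.21 without lymph node Treg replicate 3), nor did thymus Treg pass the test against thymus Tconv (0.46 ± 0.22, adjusted p = 0.327).

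AA467197 is also the host of the microRNA gene Mir147. In RefSeq (GRCm38.p6) the hairpin lies at chr2:122640803-122640881 on the plus strand, inside the AA467197 gene at chr2:122637887-122641076. It is shown because the transcript measured here carries it; the arrays do not measure the mature microRNA, and any link to Ndufa4 was not tested. Capitals mark the mature miR-147-5p.
Mir147 hairpin: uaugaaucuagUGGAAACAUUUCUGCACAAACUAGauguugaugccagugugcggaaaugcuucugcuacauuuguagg

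**Figure D3:**
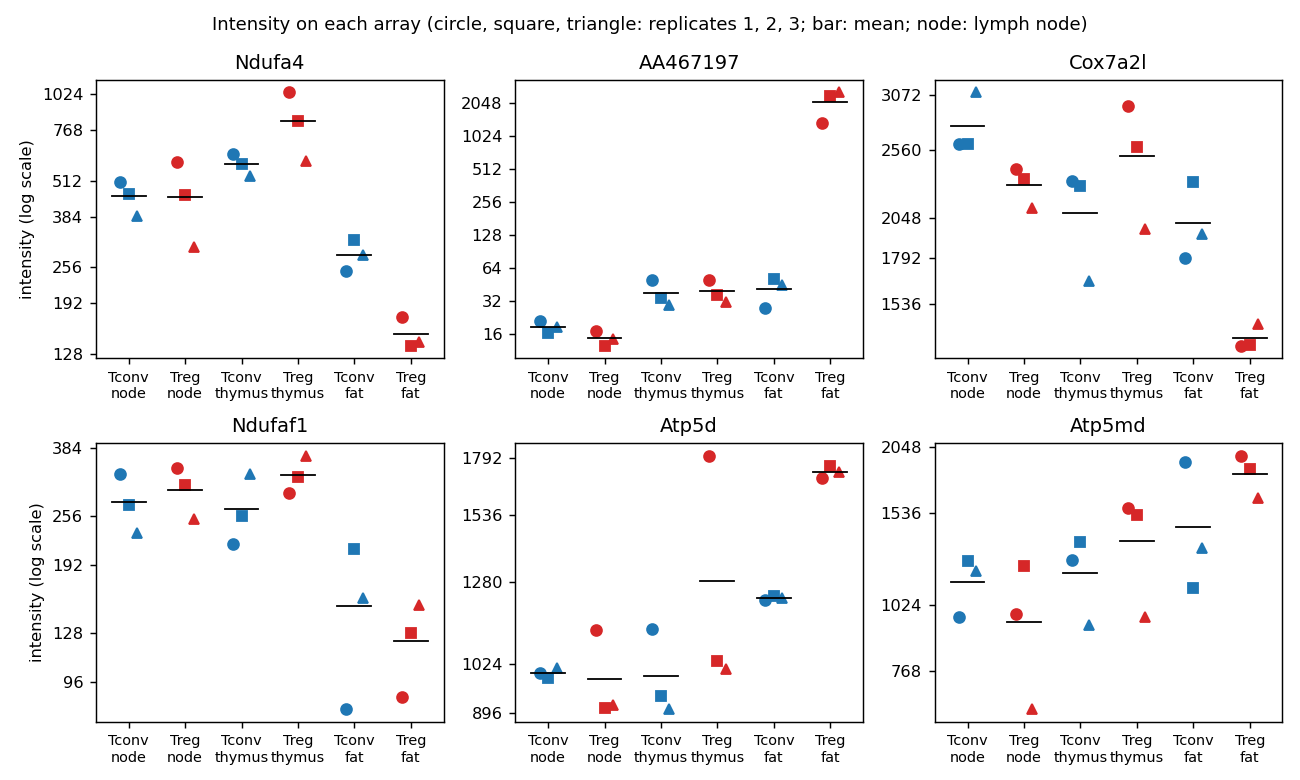
Intensity after quantile normalization (y axis, log scale, its range differing between panels) on each array of the 6 groups (x axis) for Ndufa4, its paralogue AA467197, Cox7a2l, Ndufaf1, Atp5d and Atp5md, with a bar at the mean of 3. In fat Treg, Ndufa4 (137 to 172) and Cox7a2l (1340 to 1439) lie below all other arrays and AA467197 (1352 to 2547) above them.

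Promoter windows of the whole set were searched for known motifs. RefSeq (GRCm38.p6) held at least 1 promoter window of 300 bases for 74 of the 90 genes. The most common position, from 250 bases before to 50 after the annotated start of the gene, held for 60.4% of the 32850 windows compared. The windows were searched on both strands for the cores of 3 factors known to act on respiratory genes. The NRF1 core, read as GCGCA and GCGC with any 1 base between them, was in 23.0% of the 74 and in 5.19% of all 27025 genes with a window, and the ETS core CCGGAAG, bound by GABPA among others, in 25.7% and 9.93%. The YY1 core AAGATGG was in 14.9% and 7.28%. A gene was counted once, if any of its windows held the core. The 3 cores were found for 17, 19 and 11 of the 74 genes, so most of these genes had no window with a given core. No comparison of cores was made between genes that changed in fat and genes that did not. The windows are printed for the 3 genes that fell in both fat populations (Ndufa4, Cox7a2l and Ndufaf1) and for Atp5md, which had the largest rise in fat Treg. All lie on the minus strand: Ndufa4 at chr6:11907401-11907700, Cox7a2l at chr17:83514284-83514583, Ndufaf1 at chr2:119662785-119663084 and Atp5md at chr19:47090598-47090897. Capitals mark the searched cores: Ndufaf1 and Atp5md hold 1 ETS core each, and the letters of the 3 cores were not found in the windows of Ndufa4 and Cox7a2l.
Ndufa4: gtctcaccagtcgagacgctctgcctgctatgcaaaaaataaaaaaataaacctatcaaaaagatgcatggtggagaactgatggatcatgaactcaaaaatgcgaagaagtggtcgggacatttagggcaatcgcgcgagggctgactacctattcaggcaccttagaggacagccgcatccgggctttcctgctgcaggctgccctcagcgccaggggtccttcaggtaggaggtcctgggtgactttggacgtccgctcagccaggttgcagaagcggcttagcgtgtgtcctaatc
Cox7a2l: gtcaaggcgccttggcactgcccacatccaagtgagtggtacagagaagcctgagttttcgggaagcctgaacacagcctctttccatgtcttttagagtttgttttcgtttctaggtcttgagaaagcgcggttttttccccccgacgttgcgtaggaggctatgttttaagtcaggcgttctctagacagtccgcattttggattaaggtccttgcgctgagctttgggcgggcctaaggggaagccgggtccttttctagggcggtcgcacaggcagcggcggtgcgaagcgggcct
Ndufaf1: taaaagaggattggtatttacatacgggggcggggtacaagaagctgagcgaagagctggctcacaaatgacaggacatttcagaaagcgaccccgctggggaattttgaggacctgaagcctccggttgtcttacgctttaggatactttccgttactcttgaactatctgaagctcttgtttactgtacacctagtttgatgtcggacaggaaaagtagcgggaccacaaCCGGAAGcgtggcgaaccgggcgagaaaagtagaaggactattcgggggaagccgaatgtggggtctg
Atp5md: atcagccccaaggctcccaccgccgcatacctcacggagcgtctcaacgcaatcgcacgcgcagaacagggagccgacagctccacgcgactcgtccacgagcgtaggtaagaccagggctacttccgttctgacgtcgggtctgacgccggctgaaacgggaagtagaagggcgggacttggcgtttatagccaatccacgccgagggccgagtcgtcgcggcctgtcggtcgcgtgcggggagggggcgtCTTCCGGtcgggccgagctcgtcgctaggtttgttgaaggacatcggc

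In lymph node, no gene of the set was called between Treg and Tconv by limma, while 4.61% of all genes were (3.27% higher, 1.34% lower), and 1 of the 83 had an unadjusted p under 0.05. The median was -0.09, with -0.03 over all genes, and 62 differences were below 0. Within runs the median relative to all genes was 0.08 in run 3, 0.09 in run 4 and -0.47 in run 5, and without Treg replicate 3 it was 0.16. For 78 of the 83 genes the interval lay within a doubling or halving. No alternative gave a call.

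In thymus, 77 of the 83 differences were above 0 in Treg, with a median of 0.24 against -0.02 over all genes. None was called, while 5.52% of all genes were (3.4% higher, 2.11% lower). An unadjusted p under 0.05 was found for 5 of the 83, and for 16.1% of all genes. The medians were above 0 in every role except the tissue-restricted isoforms, from 0.16 in complex III to 0.33 in complex IV. Within runs the median relative to all genes was 0.48, 0.22 and 0.14. With the replicate block 9 genes rose and none fell, 10.8% of the 83 against 13.4% of all genes (7.13% higher, 6.3% lower). They were Uqcr11 (0.75) and Uqcrq (0.72) of complex III, Ndufab1 (0.74), Ndufb8 (0.52) and Ndufb2 (0.49) and the assembly factor Ndufaf2 (0.68) of complex I, Atp5g1 (0.62) and Atp5g2 (0.54) of complex V and Sdhb (0.44) of complex II. Their adjusted p lay between 0.012 and 0.0485. Without thymus Treg replicate 3, 5 genes rose (6.02% against 8.81% of all genes): Uqcr11, Ndufb8, Atp5g2, Ndufa12 and Cox6b1. The log2 ratio of 3' to 5' Gapdh signal was 1.92 to 2.7 in thymus Treg and 2.4 to 2.95 in thymus Tconv. The Treg difference was not called as larger in thymus than in lymph node for any of the 83 genes, nor was it without lymph node Treg replicate 3. With all arrays, 0.351% of all genes were called (0.171% higher, 0.18% lower). An unadjusted p under 0.05 was then found for 5 of the 83, and for 5.67% of all genes.

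**Figure D4:**
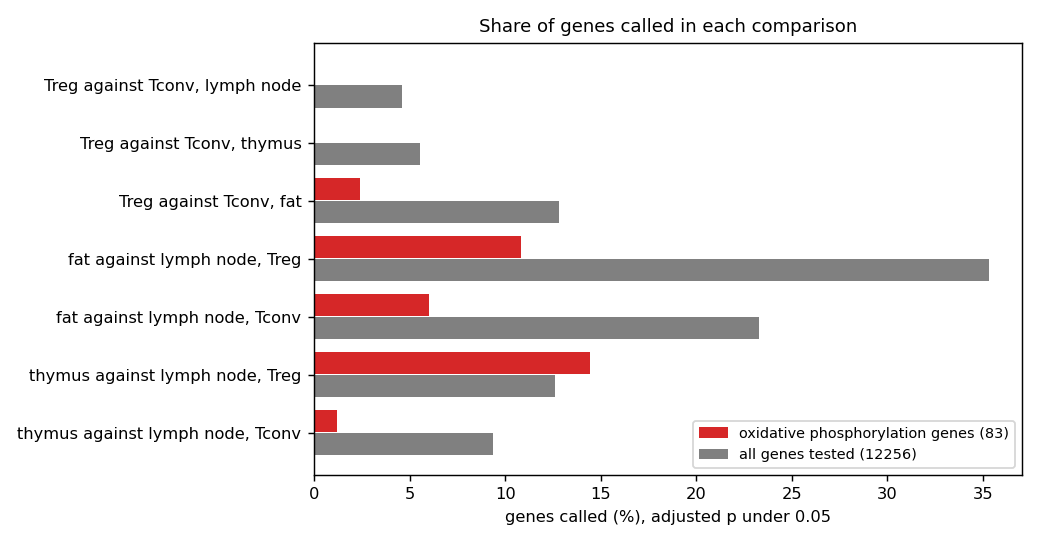
Share of genes called at adjusted p under 0.05 (x axis, percent) among the 83 oxidative phosphorylation genes (red) and all 12256 genes tested (grey) in each comparison of 2 groups (y axis). The red share is below the grey one in each comparison but thymus against lymph node Treg, where 14.5% of the set and 12.6% of all genes were called.

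Thymus Treg were set against lymph node Treg, with strain and age differing too; the lymph node Treg arrays are those used against fat. Here 12 genes rose and none fell, 14.5% of the 83, against 12.6% of all genes (6.53% higher, 6.03% lower). The median was 0.35, with 0.00 over all genes, and 78 changes were above 0; without lymph node Treg replicate 3 the median was 0.17, with 0.04 over all genes. The log2 ratio of 3' to 5' Gapdh signal was 1.92, 2.7 and 2.5 in thymus Treg and 2.31, 3.32 and 3.39 in lymph node Treg, and its part in the changes was not tested. Uqcrq, a ubiquinone-binding subunit of complex III, had 1262, 1026 and 839 in thymus Treg and 439, 356 and 118 in lymph node Treg (1.96 ± 0.39, adjusted p = 0.00282), but a second probe set of the gene gave 0.00. Its groups did not overlap, which held for 19 of the 83 genes and 24.4% of all genes. Sdhb had 1621, 633 and 592 against 469, 351 and 405 (1.06 ± 0.30, adjusted p = 0.026), and thymus replicate 1 was far above the other 2. Ndufa4 had 1035, 827 and 599.8 against 594, 456 and 301 (0.88 ± 0.22, adjusted p = 0.0134).

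Of the other rises, 3 were in complex IV, 4 in complex V and 2 in complex I. The complex IV genes were Cox6a1 (0.95), Cox5a (0.90) and Cox7a2 (0.67). In complex V they were Atp5g1 (0.96) and Atp5g3 (0.50), which encode the same ring subunit, Atp5o (0.68) of the peripheral stalk and Atp5j (0.45), its coupling factor. Complex I had Ndufb2 (0.81, and -0.29 and 0.79 on other probe sets) and Ndufab1 (0.81), the mitochondrial acyl carrier protein. Ndufb2 and Cox7a2 overlapped between the groups. These calls rested on few arrays: without lymph node Treg replicate 3, Uqcrq alone was called (1.38, adjusted p = 0.0109; 1.2% of the 83 against 8.98% of all genes), and the other 11 changes were 0.3 to 1.06. Without thymus Treg replicate 1 Uqcrq and Cox5a were (2.41% against 7.82% of all genes), and in a fit of the 2 groups alone Uqcrq was (1.2% against 6.32%). With the run as a block Uqcrq and Ndufa9 rose and Ndufs5, above the dimness threshold in lymph node alone, fell (3.61% against 8.25%). Within run 3, the only run that holds both tissues, the median relative to all genes was -0.07. The 6 markers of immature thymocytes summed to 768 to 4312 in thymus Treg and 340 to 364 in lymph node Treg. Most of this was Dntt in thymus Treg (mean 2591, against 109 in lymph node Treg). Rag1, Dntt and Ptcra rose. Cd8a went the other way without a call (means of 90.7 and 119), and Rag2 and Cd8b1 were dim in both groups. The part of these cells was not tested.

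In Tconv, 1 gene of the set differed between thymus and lymph node, against 9.35% of all genes (4.66% higher, 4.69% lower). Ndufa6, an accessory subunit of complex I, had 339, 472 and 369.9 in thymus and 625, 582 and 578 in lymph node (-0.61 ± 0.18, adjusted p = 0.0414). The call was lost as deposited, after centring and when any of 5 of its 6 arrays was left out. The median over the 83 was -0.00, with -0.01 over all genes, and the median relative to all genes was -0.11 within run 3.

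Isoforms known from muscle, brown fat or testis stayed low or flat. Cox7a1 and Cox8b, found in muscle and brown fat, had group means of 18.9 to 22.9 and 35.7 to 46.7, below the threshold of 65.5 in all groups. Cox6b2 (27.5 to 31.7) and Cox7b2 (9.40 to 12), known from testis, and Ndufa4l2 (49.2 to 63.4), which low oxygen is known to induce, were dim as well. Cox4i2, the lung isoform, had group means of 87.2 to 96.0, Cox6a2, the muscle isoform, 79.5 to 97.4, and Cox8c, known from testis, 305 to 381. None of these 3 was called in any comparison after quantile normalization; as deposited, Cox6a2 rose in fat Treg and Tconv and Cox8c in fat Treg. Ndufb1 and Ndufb4, which are part of complex I in all tissues, were also dim (28.0 to 39.5 and 28.2 to 40.7), so these probe sets say little about their genes.

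Other mitochondrial genes were read from lists of textbook members. Relative to all genes several of these lists were low in fat, but the counts of falls depended on the scale (a check chosen after the data were seen). Of 76 mitochondrial ribosomal protein genes, which make the machinery that translates the mitochondrially encoded subunits, 2 rose and 20 fell in fat against lymph node Treg (median -0.35). These were 28.9% of the list, with 26.3% falling, against 35.3% of all genes called and 19.3% falling, with Mrpl58 (-1.19, not called as deposited), Mrps22 (-1.09) and Mrpl41 (-1.03) lowest and Mrps7 (1.00) highest. As deposited 7 rose and 5 fell (15.8% of the list, 54.7% of all genes; median -0.08, with 0.37 for all genes), and without lymph node Treg replicate 3, 1 rose and 32 fell (43.4% against 34.1%). In Tconv 3 rose and 8 fell (14.5% against 23.3%), and as deposited 6 rose and none fell (7.89% against 42.3%). In thymus against lymph node Treg, 15 rose and 1 fell (21.1% against 12.6%), with a median of 0.45, and without lymph node Treg replicate 3, 3 rose and 1 fell (5.26% against 8.98%). Of 30 tested assembly factors outside the gene set, 1 rose and 10 fell in fat Treg (36.7% against 35.3% of all genes, median -0.34), and 1 rose and 11 fell in fat Tconv (40% against 23.3%). Without lymph node Treg replicate 3, 1 rose and 14 fell in Treg (50% against 34.1%). As deposited 4 of 31 rose and 6 fell in Treg (32.3% against 54.7%), and 4 rose and 4 fell in Tconv (25.8% against 42.3%). Atpaf1, a chaperone of the ATP synthase, fell in fat Treg (-1.51 ± 0.23) and fat Tconv (-1.51 ± 0.23). Cox15, which makes the heme of complex IV, fell in Treg (-1.48 ± 0.46), a call lost without lymph node Treg replicate 3. Ttc19, a complex III factor, rose in both (1.62 ± 0.19 and 1.53 ± 0.19). These comparisons of Treg and Tconv use different arrays.

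The tricarboxylic acid cycle, which feeds the chain, had 2 rises and 5 falls of 19 genes in fat Treg, 36.8% of the list and near the 35.3% of all genes, and 5 rises and 1 fall as deposited (31.6% against 54.7%). The counts were the same without lymph node Treg replicate 3 (36.8% against 34.1%). Idh2, the mitochondrial NADP-dependent isocitrate dehydrogenase, fell in fat Treg, by a change of -1.42 ± 0.24 against lymph node Treg and -1.26 ± 0.24 against fat Tconv (adjusted p = 0.00142). Its cytosolic counterpart Idh1 rose in both (0.79 ± 0.15 and 0.52 ± 0.15), the second not called as deposited. Of 16 regulators of mitochondrial biogenesis, 3 rose and 3 fell in fat Treg, 37.5% of the list and again near the share of all genes. As deposited 6 rose and 2 fell (50% against 54.7% of all genes), and without lymph node Treg replicate 3, 2 rose and 3 fell (31.2% against 34.1%). Tfam, which packages mitochondrial DNA, fell in Treg (-1.34 ± 0.25) and Tconv (-1.0 ± 0.25), as did Tfb1m (-1.24 ± 0.28) and the nuclear receptor gene Esrra (-0.75 ± 0.21) in Treg, while Gabpb1 (1.43 ± 0.39), a partner of GABPA, Sirt1 (0.86 ± 0.27) and Polrmt (0.59 ± 0.15), the mitochondrial RNA polymerase, rose. As deposited the calls of Esrra in Treg and of Tfam in Tconv were lost, and without lymph node Treg replicate 3 that of Sirt1. Tfb2m, a mitochondrial transcription factor, was lower in fat Treg than in fat Tconv (-0.76 ± 0.16) and its interaction was called (-0.95 ± 0.23, adjusted p = 0.0203).

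Of 17 electron carriers and transport genes, 3 rose and 2 fell in fat Treg (29.4% against 35.3% of all genes). As deposited 5 of 18 rose and 1 fell (33.3% against 54.7%), and without lymph node Treg replicate 3, 2 rose and 4 fell (35.3% against 34.1%). Etfb, which passes electrons from fatty acid oxidation, rose against lymph node Treg (0.91 ± 0.15) and against fat Tconv (0.67 ± 0.15), as did the phosphate carrier gene Slc25a3 (0.63 ± 0.12 and 0.37 ± 0.12); as deposited Slc25a3 was not called against fat Tconv. Cytochrome c (Cycs) rose (0.72 ± 0.21), and Coq2 (-1.06 ± 0.16) and Coq3 (-0.50 ± 0.17) of ubiquinone synthesis fell; the call of Coq3 was lost as deposited and that of Cycs without lymph node Treg replicate 3. Of 18 import and folding genes none rose and 5 fell in fat Treg (27.8% against 35.3% of all genes), Timm10 (-1.11), Timm8a1 (-0.91) and Tomm70a (-0.88) the most. As deposited 4 of these genes rose and 3 fell (38.9% against 54.7%), and without lymph node Treg replicate 3, 1 rose and 6 fell (38.9% against 34.1%). In thymus Treg against thymus Tconv, Atpif1 (1.39 ± 0.32), the inhibitor of the ATP synthase, Sdhaf1 (0.79 ± 0.18), an assembly factor of complex II, and Etfb (0.66 ± 0.15) rose. Cox10, which works with Cox15 in the synthesis of heme for complex IV, fell in Treg in thymus (-0.44 ± 0.12) and was the 1 gene of these lists called in lymph node (-0.55 ± 0.12), a call lost after centring and without lymph node Treg replicate 3 (-0.49). The 1 mitochondrially encoded subunit with a probe set, ND5, was not called in any comparison after quantile normalization; as deposited and after centring it fell in thymus against lymph node Treg (-0.46 and -0.45).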

How the data were processed

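The authors deposited linear intensities per probe set, made with RMA in GenePattern per the labels; the version, and which arrays were normalized together, are not given in the sources used here. RMA corrects background, equalises arrays and summarises the probes of a set, so a level shared by many genes on an array can be altered by it. The deposited intensities were taken to log2 and quantile-normalized over the 18 arrays, also in comparisons within a tissue. Of 45101 probe sets, 34945 had 1 gene symbol, 932 several and 9160 none, and 64 were controls; those without exactly 1 symbol were not used. The array number, not a count of reads, limits the precision.

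limma 3.58.1 in R 4.3.3 (lmFit, eBayes) was fitted with 1 coefficient per group to all genes, and was checked on simulated data. Changes are positive where the first-named group was higher. The members and all gene lists were chosen with earlier results of these data known. Named were the called genes of each comparison (up to 12 per direction), the 4 genes of complex II, the 2 genes of highest mean in each role, the tissue-restricted isoforms, and up to 3 called genes per direction of the other lists. Ndufb3 in fat Treg, Ndufc1, AA467197 and genes called only under an alternative were picked after their values were seen. Alternatives were the values as deposited or centred, other filters, all probe sets averaged, an intensity trend, a fit of the 2 groups only, blocks for replicate number and for run, and each array left out.

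Replicate numbers were checked as pairs from the correlation of deviations from the group means. Treg and Tconv arrays of a tissue with the same number correlated at 0.35 to 0.66 (9 pairs), those with other numbers at -0.52 to 0.19. Within a tissue, arrays of the same number also lay in the same run, so pairing of samples and run cannot be told apart. Fat and lymph node arrays with the same number correlated at -0.44 to 0.09, so the number does not pair them. Those with other numbers correlated at 0.09 to 0.4 in the same run and at -0.24 to 0.24 in other runs.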

Additional observations from a re-analysis of the deposited data

How the results depend on the processing

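Every count below is of the 83 genes called by limma, and percentages set their share against that of all genes in the same fit. With the replicate number as a block, calls between Treg and Tconv changed from 0 to 9 in thymus (10.8% against 13.4%) and from 2 to 5 in fat (6.02% against 23.1%). Those of the fat interaction changed from 0 to 2 (2.41% against 11.8%). The block changed no other count by over 1.5 times. Values as deposited gave 1 call for Treg against Tconv in fat (1.2% against 11.5%) and 8 for fat against lymph node Tconv (9.64% against 42.3%). For thymus against lymph node Tconv they gave 0 (0% against 8.74%). Centred arrays gave 1, 3 and 0 for these, and 4 for thymus against lymph node Treg. Averaging all probe sets, with 82 of the genes tested, gave 16 calls for fat against lymph node Treg (19.5% against 39.8%) and 9 for Tconv (11% against 26.5%). For thymus against lymph node Tconv it gave 2 (2.44% against 10.4%). The run block gave 17 and 12 for fat against lymph node in Treg and Tconv (20.5% against 44.4% and 14.5% against 31.9%). For thymus against lymph node it gave 3 and 4 (3.61% against 8.25% and 4.82% against 8.28%). A fit of the 2 groups alone gave 1 and 3 for thymus against lymph node in Treg and Tconv, and an intensity trend gave 0 for Tconv. The cause of these differences was not tested.

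The median of the genes relative to that of all genes changed from -0.08 to 0.288 within run 5 for fat against lymph node Treg. For Tconv it was 0.016 within run 4 and -0.275 within run 5. For thymus against lymph node it was -0.066 within run 3 in Treg, and in Tconv -0.107 within run 3 and -0.277 with the run block.

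With each array left out in turn, the calls ranged from 0 to 0 for Treg against Tconv in lymph node, 0 to 5 in thymus and 1 to 2 in fat. They ranged from 7 to 23 for fat against lymph node Treg, 0 to 6 for Tconv, 1 to 16 for thymus against lymph node Treg and 0 to 1 for Tconv, and were 0 to 1 and 0 to 0 for the interactions in fat and thymus. Of all genes in the same refits, 3.25% to 3.66%, 3.78% to 8.81% and 9.81% to 13.7% were called between Treg and Tconv in lymph node, thymus and fat. For fat against lymph node it was 28% to 34.1% in Treg and 17.6% to 23.3% in Tconv. For thymus against lymph node it was 7.82% to 15.1% and 6.34% to 8.72%. For the interactions it was 4.19% to 6.12% in fat and 0.155% to 0.555% in thymus. The relative medians ranged from -0.200 to 0.160, 0.173 to 0.388 and -0.147 to 0.025 for Treg against Tconv in lymph node, thymus and fat. For fat against lymph node they ranged from -0.269 to 0.049 in Treg and -0.195 to -0.026 in Tconv. For thymus against lymph node they ranged from 0.130 to 0.515 in Treg and -0.016 to 0.077 in Tconv, and for the interactions from -0.192 to 0.15 in fat and 0.145 to 0.516 in thymus.

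Over all genes, the replicate block raised the calls between Treg and Tconv from 565 to 1084 in lymph node, from 676 to 1646 in thymus and from 1564 to 2828 in fat, and those of the interactions from 654 to 1449 in fat and from 43 to 137 in thymus. Values as deposited raised those of fat against lymph node from 4332 to 7018 in Treg and from 2860 to 5425 in Tconv. Testing only genes above the threshold in all 6 groups lowered the calls between Treg and Tconv in lymph node to 345 and those of the interactions to 407 in fat and 10 in thymus. A fit of the 2 groups alone gave 408 for Treg against Tconv in thymus and 775 for thymus against lymph node Treg (1539 otherwise), where the run block gave 1011. Without thymus Treg replicate 3 the thymus count was 1080, without replicate 1 thymus against lymph node Treg had 958, and the thymus interaction ranged from 19 to 68. Over the 29 named changes, 131 of 420 refits lost the call and 0 reversed its sign. With 3 pools per group, changes near a gene's standard error could not be resolved, and dim genes have no reliable level.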
